A study of Mus musculus with 41 samples.

Results

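The genes described here encode the nuclear subunits of respiratory chain complexes I, II and III. They were taken as all probe sets that name exactly 1 gene whose symbol starts with Ndufa, Ndufb, Ndufc, Ndufs, Ndufv or Uqcr, or is Sdha, Sdhb, Sdhc or Sdhd, without the assembly factors whose symbols start with Ndufaf. With 1 probe set per gene, the one of highest mean over all arrays, 48 of the 18194 genes on the array belonged to the set. Of these, 47 passed the filter on low values, as did 14319 genes in all; Ndufb4 did not pass. The 47 genes comprised 33 subunits of complex I, 4 of complex II, 8 of complex III, and Ndufa4 with its paralog Ndufa4l2.

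RNA came from 41 macrodissected frozen melanomas of iBIP mice, a strain in which a doxycycline-controlled BRAF drives the tumours, and was hybridised to Affymetrix Mouse Genome 430 2.0 arrays. All tumours shared this strain, and the labels list no further alleles, no age and no promoter. Doxycycline was removed from the water for a stated number of days. The groups held 4 tumours for day 0, 7 for day 1, 5 for day 2, 6 for day 3, 4 for day 6, 3 for day 9, and 1 each for days 16 and 29. A further 10 tumours, called late here, came from days 63 (3 tumours), 77 (2), 90 (1), 121 (2), 136 (1) and 163 (1). Whether late tumours were regrown, and whether every tumour had its own mouse, is not given in the labels, so the p-values measure the spread between these samples. In bulk tumour RNA, fewer cells of a type and less RNA per cell cannot be told apart.

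Complex I (NADH dehydrogenase) takes electrons from NADH at the N module, passes them through the iron-sulfur clusters of the Q module to ubiquinone, and pumps protons through its membrane arm. Complex II (succinate dehydrogenase) feeds electrons from succinate into the same ubiquinone pool, and complex III passes them on to cytochrome c. Most subunits are nuclear-encoded accessory proteins around a small catalytic core. In melanoma cells, output of the BRAF and MAPK pathway is known to favour glycolysis, and MITF is known to raise oxidative genes through the coactivator gene Ppargc1a.

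The promoters of the 2 subunits with the largest rises in late tumours against day 0, Ndufb3 and Ndufa6, and of 2 that fell, Ndufa10 and Uqcrc1, are shown so that genes that moved in opposite directions can be read side by side. Each runs from 250 bases before to 50 after the start site, 5′ to 3′ on the gene's own strand, from RefSeq's GRCm38.p6 table. Capitals mark matches to the palindromic site of NRF1, a transcription factor of many respiratory genes, searched as GCGCA, any base, GCGC.
Ndufb3: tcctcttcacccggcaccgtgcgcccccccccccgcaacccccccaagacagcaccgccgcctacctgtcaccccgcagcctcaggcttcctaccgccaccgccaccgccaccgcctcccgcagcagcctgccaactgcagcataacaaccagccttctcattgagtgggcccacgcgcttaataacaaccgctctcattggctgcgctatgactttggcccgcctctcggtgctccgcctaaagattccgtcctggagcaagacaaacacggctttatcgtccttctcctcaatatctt
Ndufa6: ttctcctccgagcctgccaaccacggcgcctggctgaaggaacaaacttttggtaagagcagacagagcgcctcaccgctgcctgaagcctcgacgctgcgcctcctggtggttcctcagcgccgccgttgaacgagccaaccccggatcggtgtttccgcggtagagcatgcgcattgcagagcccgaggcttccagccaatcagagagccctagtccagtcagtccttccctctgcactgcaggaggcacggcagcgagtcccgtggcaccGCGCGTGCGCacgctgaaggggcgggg
Ndufa10: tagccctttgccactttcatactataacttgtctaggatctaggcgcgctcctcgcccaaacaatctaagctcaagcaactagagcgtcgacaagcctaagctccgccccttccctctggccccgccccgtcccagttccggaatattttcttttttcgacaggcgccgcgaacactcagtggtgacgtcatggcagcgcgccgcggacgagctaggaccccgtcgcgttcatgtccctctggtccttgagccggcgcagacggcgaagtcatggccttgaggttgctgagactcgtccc
Uqcrc1: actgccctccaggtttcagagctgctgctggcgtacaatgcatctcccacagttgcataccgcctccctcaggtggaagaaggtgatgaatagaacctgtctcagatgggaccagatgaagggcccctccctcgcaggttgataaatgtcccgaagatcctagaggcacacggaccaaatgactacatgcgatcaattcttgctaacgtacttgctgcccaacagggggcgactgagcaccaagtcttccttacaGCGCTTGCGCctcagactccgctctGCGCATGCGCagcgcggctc

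Ndufb3 lies at chr1:58586147-58586446 (+ strand), Ndufa6 at chr15:82354242-82354541 (− strand), Ndufa10 at chr1:92473709-92474008 (− strand) and Uqcrc1 at chr9:108936398-108936697 (+ strand), where these intervals are the windows printed. The match in Ndufa6 starts at position 24 after the start site, and those in Uqcrc1 at positions 6 and 31. Promoters were found for 40 of the 48 genes, in 42 windows. On either strand, the NRF1 letters occurred in 9 of the 42 windows (21.4%), against 4.6% of all 32851 windows in the table. The letters CCGGAAG, bound by ETS factors such as GABPA, occurred in 19% against 8.86%, AAGATGGCG (YY1) in 9.52% against 1.4%, TCAAGGTCA (ERRA) in 2.38% against 0.423%, and CACGTG (E-box, bound by MYC and MITF) in 7.14% against 7.15%. No searched motif is contained in another, and matches of different motifs may overlap on a promoter. The NRF1 letters were in 5 of 23 windows of genes higher in late tumours than at day 0 and in 4 of 19 windows of the other members. The YY1 letters were in 0 of 23 and 4 of 19, in Ndufa9, Ndufc1, Ndufs4 and Ndufs7. These are matches of letters, not measured binding.

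Several facts of the arrays moved with the groups. Hybridisation and labelling spike-ins (bioD and dap) split the arrays into 3 sets: set 1 held every tumour of days 2, 3 and 6 and 1 of day 1, set 2 held 6 tumours of day 1 and 8 late ones, and set 3 held days 0, 9, 16 and 29 and the late tumours of days 136 and 163. The gap between the 3′ and 5′ control probe sets of Gapdh, a sign of RNA quality that grows as RNA is degraded, was 0.48 ± 0.11 log2 units at day 0 (SD, n = 4) and 2.68 ± 1.44 in late tumours (SD, n = 10), where 8 tumours exceeded 2. Among earlier tumours only replicate 3 of day 9 did so, at 2.35. Melanocyte lineage markers were present in part: 9 of 11 passed the filter, with Sox10 at 10.26 and the pigment gene Pmel at 6.25 in the mean of day 0, while Tyr did not pass. Summed intensity of 16 skeletal muscle markers ran from 590 to 755 at day 0 and from 627 to 22600 in late tumours. The MAPK output genes Dusp6 and Spred3 were lower in late tumours than at day 0 by 1.43 ± 0.21 and 2.08 ± 0.19 log2 units (difference ± SE, adjusted p = 1.76e-06 and 2.04e-09, limma).

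As a group, the subunit genes were higher in late tumours than at day 0. Averaged over 46 genes (all that passed except Ndufa4l2), the 4 day 0 tumours had mean log2 intensities of 10.32, 10.57, 10.59 and 10.62. The 10 late tumours had 10.60 at the lowest, 10.81 in the median and 10.99 at the highest. The groups met at their edges: late tumours of days 90 and 136 lay within the range of day 0 and that of day 163 just above it. Group means were 10.53 ± 0.14 for day 0, 10.67 ± 0.13 for day 1, 10.64 ± 0.09 for day 2, 10.56 ± 0.05 for day 3, 10.55 ± 0.14 for day 6, 10.62 ± 0.09 for day 9 and 10.80 ± 0.14 for the late tumours (SD over tumours). The single tumours of days 16 and 29 stood at 10.49 and 10.57.

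**Figure D1:**
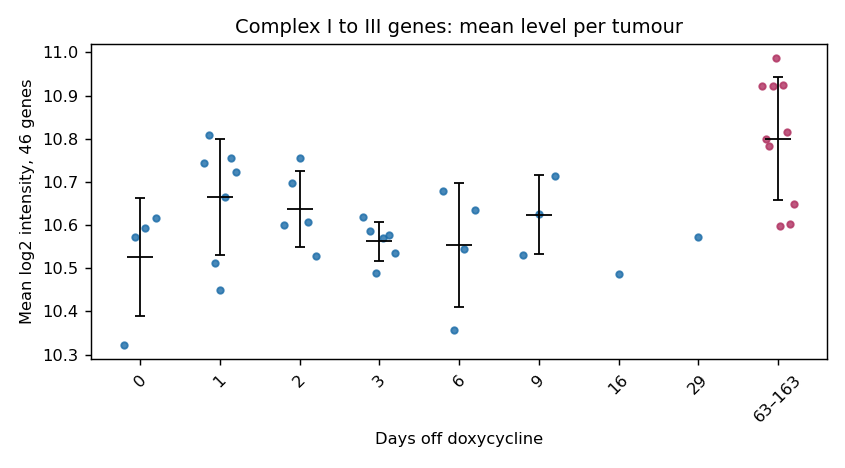
Mean log2 intensity over 46 complex I to III genes in each tumour (points) by days off doxycycline, with group mean and SD (bars). The late tumours, in red, span 10.60 to 10.99, and the day 0 tumours 10.32 to 10.62.

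Against day 0, 24 of the 47 genes (51.1%) were called higher in late tumours and 4 lower, at a Benjamini-Hochberg adjusted p under 0.05 over all genes tested with limma. Of all 14319 genes, 26.3% were called higher and 20.1% lower, so the share higher was above the background and the share lower below it. The median difference was 0.27 log2 units over the members and 0.05 over all genes, and 38 of 47 differences were positive. Between the groups, 5 genes (Ndufb3, Ndufa6, Ndufb9, Ndufb11 and Ndufa2) did not overlap at all, below the 17.8% of all genes. Leaving out replicate 1 of day 0, the lowest tumour, left 17 calls, 13 higher and 4 lower, with a median of 0.19.

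**Figure D2:**
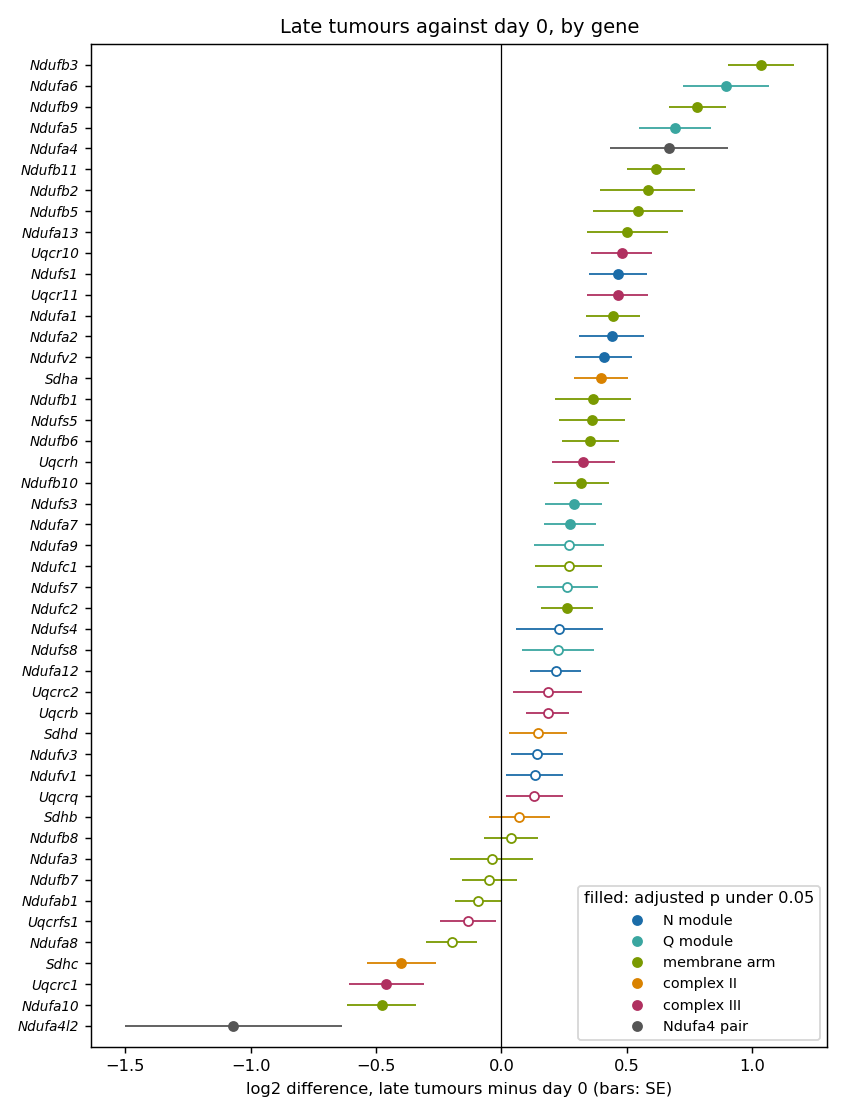
Log2 difference between late tumours and day 0 for each of the 47 genes, with its SE as a bar and its module or complex as a colour; filled points had an adjusted p under 0.05. Ndufb3 lies at the top at 1.04 and Ndufa4l2 at the bottom at -1.07.

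Within complex I, 19 of 33 subunits rose and 1 fell in late tumours, and the largest rises were accessory subunits. The membrane arm gave 12 rises and 1 fall among 19 genes. Ndufb3, an accessory subunit of the distal membrane arm, read 9.65, 9.98, 10.09 and 10.15 log2 units in the day 0 tumours. In late tumours its level was 10.59 at the lowest, 11.05 in the median and 11.38 at the highest, so every late tumour was above every day 0 tumour. The difference was 1.04 ± 0.13 log2 units, a 2.05-fold higher intensity (adjusted p = 2.76e-07).

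Ndufb9 and Ndufb11, also of the distal membrane arm, were separated from day 0 in the same way. Ndufb9 read 11.16, 11.78, 11.58 and 11.60 at day 0 and 12.18, 12.29 and 12.43 (lowest, median, highest) late, a difference of 0.78 ± 0.11 (adjusted p = 1.63e-06). The late tumours lay close together for this gene, well above all of day 0. Ndufb11 read 11.48, 11.73, 11.79 and 11.82 at day 0 and 12.03, 12.29 and 12.60 late, a difference of 0.62 ± 0.12 (adjusted p = 6.02e-05). Further rises in the membrane arm ran from 0.26 (Ndufc2) to 0.58 (Ndufb2), among them Ndufb5 at 0.54 ± 0.18, Ndufa13, also known as GRIM-19, at 0.50 ± 0.16 and Ndufa1 at 0.45 ± 0.11.

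The only fall in complex I was that of Ndufa10, a membrane arm subunit related to nucleoside kinases. It read 10.16, 10.56, 10.47 and 10.51 at day 0 and 9.63, 10.02 and 10.21 late. Only the lowest day 0 tumour was inside the late range. The difference was -0.48 ± 0.14 (adjusted p = 0.00512). A second Ndufa10 probe set, with a mean of only 5.84 over all arrays against 10.20 for the one used, differed by 0.02, and the mean of both by -0.23 ± 0.09. Ndufb7, Ndufb8, Ndufa3, Ndufa8 and Ndufab1, the mitochondrial acyl carrier protein, were not called, with differences from -0.20 to 0.04.

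In the Q module 4 of 7 genes rose and none fell. Ndufa6, an accessory subunit of the LYR family on the Q module, read 9.92, 10.03, 10.22 and 10.26 at day 0 and 10.43, 11.13 and 11.41 late. The ranges did not overlap, and the difference was 0.90 ± 0.17, or 1.86-fold (adjusted p = 7.26e-05). Ndufa5, another accessory subunit there, read 9.44, 10.14, 10.11 and 10.01 at day 0 and 10.12, 10.63 and 10.93 late, a difference of 0.69 ± 0.14 (adjusted p = 0.000216). Its highest day 0 tumour reached just past the lowest late one. The remaining accessory subunits of the module, Ndufa7 and Ndufa9, differed by 0.28 ± 0.10 (adjusted p = 0.0296) and 0.27 ± 0.14 (not called, adjusted p = 0.112).

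In the catalytic core of the Q module, Ndufs3 read 10.30, 10.84, 10.69 and 10.51 at day 0 and 10.62, 10.91 and 11.06 late, and its difference of 0.29 ± 0.11 was called (adjusted p = 0.0351). That call was lost without either of 2 day 0 tumours (replicates 1 and 4, adjusted p = 0.21 and 0.0964) and, by small margins (0.0501 to 0.054), without late replicate 4, 6 or 7. The cluster-bearing subunits Ndufs7 and Ndufs8 were not called, at 0.26 ± 0.12 (adjusted p = 0.0738) and 0.23 ± 0.14 (adjusted p = 0.197). Ndufs7 passed the threshold when late replicate 5 or 8 was left out (adjusted p = 0.025 and 0.0371).

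In the N module 3 of 7 genes rose and none fell. Ndufs1, its largest iron-sulfur subunit, read 9.21, 9.08, 9.32 and 9.46 at day 0 and 9.34, 9.73 and 10.19 late, a difference of 0.47 ± 0.11 (adjusted p = 0.00126). Late tumours of days 90 and 136, at 9.34 and 9.36, stayed inside the day 0 range. Ndufv2, an iron-sulfur subunit, read 11.03, 11.30, 11.44 and 11.65 at day 0 and 11.52, 11.80 and 11.98 late, a difference of 0.41 ± 0.11 (adjusted p = 0.00379). The accessory Ndufa2 differed by 0.44 ± 0.13. Ndufv1, which binds NADH and the flavin, was not called at 0.13 ± 0.11, nor were Ndufv3, Ndufs4 and Ndufa12.

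Complex II did not move as a unit. Sdha, the flavoprotein that oxidises succinate, read 9.74, 9.99, 10.10 and 10.25 at day 0 and 10.02, 10.40 and 10.81 late, a difference of 0.40 ± 0.11 (adjusted p = 0.00301). A second Sdha probe set that passed the filter differed by 0.30. An average over all 4 of its probe sets, of which 2 did not pass the filter, differed by 0.06 ± 0.06 and was not called (adjusted p = 0.427). Sdhc, a membrane anchor, went the other way: 9.37, 9.64, 9.54 and 9.47 at day 0 against 8.80, 9.06 and 9.66 late, a difference of -0.40 ± 0.14 (adjusted p = 0.0172). The iron-sulfur subunit Sdhb and the other anchor Sdhd were not called, at 0.07 ± 0.12 and 0.15 ± 0.12. Without replicate 2 of day 0 the Sdhc difference was -0.35 and not called (adjusted p = 0.0644).

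The Sdhc values were set beside the Gapdh gap and the muscle markers. Late replicates 5 and 8, from days 77 and 121, had Gapdh gaps of 0.61 and 0.29 and the highest Sdhc levels of the late group, 9.40 and 9.66, within the day 0 range or just above it. Replicate 3 of day 9, with the one large gap before day 16, had an Sdhc level of 8.82 against 9.40 and 9.64 in the other day 9 tumours. Its muscle marker sum was 7715, against 712 and 1397 in the other 2, and late replicates 5 and 8 had sums of 844 and 627. Late replicate 7, with a sum of 795 and a gap of 3.28, read 8.97 for Sdhc. RNA quality and muscle content were not tested against each other. With the gap as a covariate Sdhc differed by 0.04 ± 0.13 between late tumours and day 0 (adjusted p = 0.827). For Sdha the same fit gave 0.13 ± 0.12 (adjusted p = 0.441).

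Complex III also moved in both directions, with 3 of 8 genes higher and 1 lower. The 3 that rose were small subunits. Uqcr10 read 10.63, 10.86, 10.93 and 10.97 at day 0 and 10.90, 11.36 and 11.67 late (0.48 ± 0.12, adjusted p = 0.00166). Uqcr11 was higher by 0.46 ± 0.12, and Uqcrh, the hinge protein beside cytochrome c1, by 0.33 ± 0.13. The small subunits Uqcrb and Uqcrq were not called, at 0.18 ± 0.09 and 0.13 ± 0.11. A second Uqcrb probe set that passed the filter differed by 0.70. Its mean over all arrays was 10.21, against 12.82 for the one used. Uqcrc1, one of the large matrix-facing core proteins, read 9.89, 10.39, 10.21 and 10.08 at day 0 and 9.22, 9.76 and 10.08 late. The groups overlapped between 9.89 and 10.08, and the difference was -0.46 ± 0.15 (adjusted p = 0.0117, or 0.0645 without replicate 2 of day 0). Its partner Uqcrc2 differed by 0.18 ± 0.14 and the Rieske iron-sulfur protein Uqcrfs1 by -0.13 ± 0.11, neither called.

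Ndufa4 and Ndufa4l2 went opposite ways. Ndufa4, first assigned to complex I and now regarded as a complex IV subunit, read 10.39, 10.13, 10.74 and 10.88 at day 0 and 10.47, 11.31 and 11.82 late (0.67 ± 0.23, adjusted p = 0.0191). It was not called without day 0 replicate 1 or 2 (adjusted p = 0.0591 and 0.0958), nor in a fit of the 2 groups alone (adjusted p = 0.063). Ndufa4l2, a paralog known to be induced by hypoxia, read 7.41, 8.39, 8.21 and 8.36 at day 0 and 6.62, 7.04 and 7.46 late. The lowest day 0 tumour lay near the top of the late range, and the other 3 were above it. The difference was -1.07 ± 0.43, a 2.1-fold lower intensity (adjusted p = 0.0412), and the call was lost, at adjusted p from 0.0514 to 0.107, without day 0 replicate 2, 3 or 4 or late replicate 2, 3, 4, 6 or 7. It was also lost with median-centred arrays, no filter or a pseudocount of 64 (adjusted p from 0.0512 to 0.0615).

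**Figure D3:**
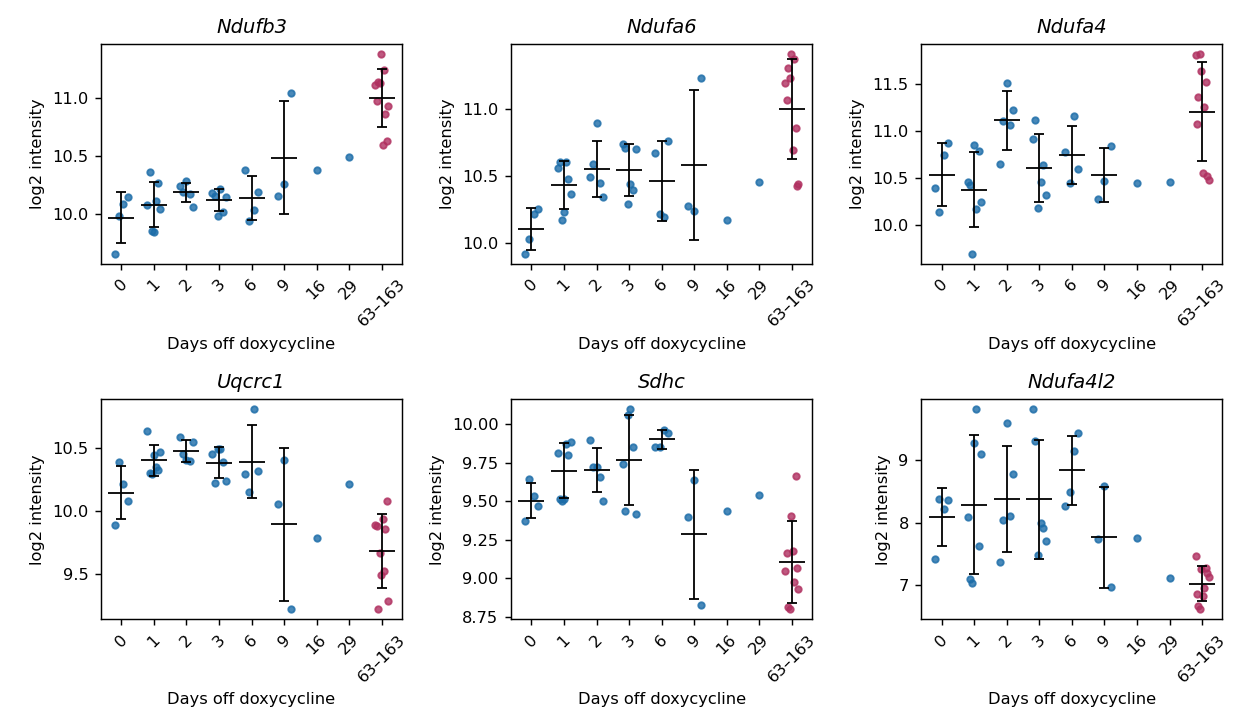
Log2 intensity of 6 genes in each tumour (points) by days off doxycycline, with group mean and SD (bars) and late tumours in red. Ndufb3 in late tumours (10.59 to 11.38) lies above all day 0 tumours, and Ndufa4l2 spreads from 7.04 to 9.82 at day 1 but only from 6.62 to 7.46 late.

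Late tumours differed among themselves. The tumours of days 90, 136 and 163 had the lowest means over 46 genes (10.60, 10.60 and 10.65), and the other 7 ran from 10.78 to 10.99. For Ndufa4 these 3 read 10.55, 10.52 and 10.47, and the other 7 were at 11.08 or above. For Ndufb5 they read 10.44, 10.15 and 10.04 against 10.95 or above. Ndufa6 showed the same order, at 10.70, 10.43 and 10.45 against 10.86 or above. Ndufb9 did not, with 12.28, 12.27 and 12.28 inside the range of the others. The tumours of days 136 and 163 are also the only late ones in spike-in set 3, and the part of the spike-in set in this pattern was not tested.

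Compared with day 1, which shares spike-in set 2 with most late tumours, 17 of 47 genes (36.2%) were higher in late tumours and 7 lower. Over all genes 51.7% were called, 28.9% higher and 22.8% lower, so both shares were nearer to the background than those against day 0. The median difference was 0.17 over the members and 0.06 over all genes. Both late comparisons use the same late tumours: 15 genes were called higher in both, 4 (Ndufa10, Ndufa4l2, Sdhc and Uqcrc1) lower in both, and none in opposite directions.

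Ndufb3 led again, from 9.84, 10.08 and 10.36 (lowest, median, highest) at day 1 to the late values above, a difference of 0.92 ± 0.11 (adjusted p = 7.66e-08) with no overlap. The 2 groups did not overlap for 5 members, against 8.23% of all genes. Ndufa4 differed by 0.83 ± 0.20 (adjusted p = 0.000668) and Ndufb9 by 0.57 ± 0.09 (adjusted p = 7.7e-06). In complex III, Uqcr10 (0.53 ± 0.10), Uqcr11, Uqcrh, Uqcrb and Uqcrc2 were called higher. The Uqcrc2 call (0.29 ± 0.12, adjusted p = 0.0325) was lost, at adjusted p from 0.0537 to 0.094, without day 1 replicate 3 or late replicate 1, 3, 4, 5, 7 or 8, and that of Ndufv2 (0.26 ± 0.09) without day 1 replicate 4 (0.0674).

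The same 4 genes were lower than at day 1, by larger estimates than against day 0, though that change was not tested. Uqcrc1 ran from 10.29 to 10.63 at day 1, above all late tumours, and differed by -0.72 ± 0.12 (adjusted p = 1.75e-05). Sdhc differed by -0.60 ± 0.11 (adjusted p = 6.92e-05), Ndufa10, without overlap, by -0.52 ± 0.12 (adjusted p = 0.000383) and Ndufa4l2 by -1.27 ± 0.36 (adjusted p = 0.00384). Uqcrfs1, Ndufb8 and Ndufab1 were also called lower, by -0.27, -0.26 and -0.20. Between these groups immune markers fell as well, with 10 of 12 macrophage and 11 of 11 T and NK cell markers lower in late tumours than at day 1; their part in the subunit differences was not tested.

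RNA quality, spike-in set and muscle content moved with the late group, and each was put into a fit. With the Gapdh gap as a covariate, 13 genes were called higher and none lower against day 0, and 9 higher and none lower against day 1. Of all 14319 genes, 3542 were called against day 0, 1620 of them higher, and 3709 against day 1, 1580 higher. The share of members called higher was above that of all genes in both. Ndufb3 (0.91 ± 0.17), Ndufa4 (0.85 ± 0.30), Ndufa6 (0.80 ± 0.22), Ndufb9 (0.72 ± 0.14) and Ndufb11 (0.55 ± 0.15) were among the 13. With this covariate Uqcrc1 differed from day 0 by -0.12 ± 0.17, Ndufa10 by -0.23 ± 0.17 and Ndufa4l2 by -0.45 ± 0.53, none called. When tumours with a gap over 2 were left out instead, which keeps late replicates 5 and 8 only, 23 genes were higher and 3 lower. Ndufb3 was higher by 1.16 ± 0.15 and Uqcrc1 differed by -0.47 ± 0.15. Over all genes 4043 were called, 1870 of them higher.

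When the spike-in set entered as a block, 7 genes were higher against day 0 (Ndufb3, Ndufb9, Ndufb11, Ndufa5, Ndufb7, Ndufs7 and Ndufv1) and 1 lower (Uqcrfs1). Day 0 lies only in set 3, so these block estimates rest on the 2 late tumours of that set, from days 136 and 163. They are the same differences as within set 3, with a median of 0.15 over the members in both fits. Ndufb3 stood at 0.81 ± 0.19 and Ndufa4 at -0.04 ± 0.30. Of all 14319 genes, that fit called 4306, 2758 of them higher. The shares of members called and called higher were thus below those of all genes. Within set 3, where only 2 late tumours meet the 4 of day 0, Ndufb9 (0.74 ± 0.18) and Ndufs7 were higher and none was lower. Over all genes 2341 were called there, 1581 of them higher, again larger shares than among the members. Against day 1 within set 2, 8 late and 6 day 1 tumours gave 18 higher and 8 lower, where 7037 of all genes were called, 3642 higher. Ndufb3 stood at 0.94 ± 0.12, Ndufa4 at 1.09 ± 0.20 and Uqcrc1 at -0.71 ± 0.11. For late tumours against day 1 the counts were thus as large within 1 spike-in set as over all arrays.

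Markers of other cell types were counted too, where 26.3% of all genes were higher in late tumours than at day 0 and 20.1% lower. The shares of keratinocyte, neutrophil and adipocyte markers called higher were close to that of all genes. Their median differences were 1.66, 0.57 and 0.30, against 0.05 for all genes. Melanocyte markers were higher in 3 of 9 and lower in none. Schwann cell markers, a list that shares Sox10 with the melanocyte list, were higher than at day 0 in 4 of 7. Their median difference was 1.18, with sums of 2385 to 4587 at day 0 and 5867 to 11811 late. Fibroblast markers were higher in 4 of 8 (sums of 33893 to 61994 and 38507 to 73479), endothelial markers in 3 of 8 with 1 lower, and keratinocyte markers in 2 of 9. All 9 keratinocyte differences were positive, with sums of 862 to 12083 at day 0 and 573 to 45361 late. Of neutrophil markers 2 of 7 were higher and 1 lower, and of the 4 adipocyte markers that passed 1 was higher and 1 lower, with sums over 8 markers of 213 to 633 and 1066 to 3797. Neutrophil marker sums ran from 1222 to 7312 at day 0 and from 2778 to 32767 late. The part of these cell types in the subunit differences was not tested.

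Skeletal muscle, a tissue rich in mitochondria, was present to different degrees: 11 of 16 of its markers were higher in late tumours than at day 0, with a median difference of 1.56. The late tumours of replicates 5 to 8 had marker sums of 844, 1698, 795 and 627, and their Ndufb3 levels were 11.38, 10.59, 11.24 and 10.87, all above day 0. Leaving out tumours with a sum over 2000, an alternative added after the data had been seen, kept 4 late and 4 day 0 tumours. It gave 22 genes higher and 3 lower, where 5755 of all 14319 genes were called, 3042 of them higher. In that fit Ndufb3 differed by 1.06 ± 0.14 and Ndufa6 by 0.98 ± 0.16, while Sdha (0.25 ± 0.12), Sdhc (-0.20 ± 0.15) and Ndufa4l2 (-1.02 ± 0.51) were not called. With the log2 muscle sum as a covariate, likewise added later, 20 genes were higher and 1 lower, where 5484 of all genes were called, 2874 higher. Ndufb3 was higher by 0.99 ± 0.15, and Uqcrc1 (-0.38 ± 0.17, limma adjusted p = 0.0705) was not called either.

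In the first days after withdrawal few subunit genes changed. At day 1, 2 genes were higher than at day 0 and none lower, or 4.26% of the members, where 13.8% of all genes were called (7.57% higher, 6.25% lower). Ndufs5, a membrane arm accessory subunit, read 6.40, 6.57, 6.49 and 6.47 at day 0 and 6.59, 6.77 and 7.36 (lowest, median, highest) at day 1. All day 1 tumours were above day 0 for this gene alone among the 47, against 8.34% of all genes without overlap, by 0.45 ± 0.14 in the mean (adjusted p = 0.0295). Ndufb10, another membrane arm subunit, differed by 0.39 ± 0.12 (adjusted p = 0.023). The differences of 40 of 47 genes were positive with a median of 0.12, against 0.00 for all genes. Without replicate 1 of day 0, the lowest in the mean over the members, that median was 0.04 and no gene was called, nor was any without replicate 4. Only 1 was without day 0 replicate 3 or day 1 replicate 6 or 7, and 5 were without day 1 replicate 4.

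At day 2, 3 genes were higher and none lower, against 6.74% and 8.35% of all genes. Ndufb5 read 11.00, 10.97, 11.09, 10.89 and 10.66 at day 2, above its day 0 values of 9.94, 10.36, 10.41 and 10.53 in every tumour (0.62 ± 0.20, adjusted p = 0.0357). Ndufb6 differed by 0.40 ± 0.13 and Sdhd by 0.39 ± 0.13 (adjusted p = 0.0331 and 0.0377). The groups did not overlap for 6 members, against 16.4% of all genes. None of the 3 was called without day 0 replicate 1, or without day 2 replicate 2 or 4, and 1 was without day 0 replicate 2 or day 2 replicate 3.

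At day 3, 2 genes were higher (Ndufb5 and Sdhd) and 4 lower, against 9.74% and 11.6% of all genes, so both shares of members (4.26% and 8.51%) were below the background. Sdhd, an anchor of complex II, read 10.20, 10.59, 10.68 and 10.70 at day 0 and 10.91, 10.96 and 11.16 (lowest, median, highest) at day 3. Groups did not overlap for this gene and 7 others, against 18.3% of all genes, and the difference was 0.45 ± 0.13 (adjusted p = 0.0107, or 0.0797 without day 0 replicate 1). Ndufb7, of the distal membrane arm, read 11.78, 11.82, 11.64 and 11.88 at day 0 and 11.27, 11.39 and 11.47 at day 3, with no overlap and a difference of -0.40 ± 0.12 (adjusted p = 0.0159, or 0.0657 without day 0 replicate 4). Ndufs7, Ndufa12 and Uqcrb were lower by -0.36, -0.33 and -0.26. For Ndufs7, Sdhd and Uqcrb another probe set of the gene had the opposite sign, and with the mean of each gene's probe sets no member was called at day 3.

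At day 6 much the same genes were called: Ndufs5 and Sdhd higher (0.48 ± 0.16 and 0.42 ± 0.14), and Ndufb7, Ndufa12 and Uqcrb lower (-0.49 ± 0.13, -0.40 ± 0.12 and -0.31 ± 0.10), where 5.74% of all genes were higher and 6.46% lower. Sdhd read 11.06, 10.78, 10.92 and 11.09, all above day 0, and Ndufb7 11.51, 10.97, 11.30 and 11.40, all below. Without overlap stood 9 members, against 22.9% of all genes. With arrays centred on their medians instead of quantile normalised, the calls were 2 higher and 1 lower at day 3 and 1 and 1 at day 6. Single tumours decided several calls: leaving out day 0 replicate 4 left none at day 6 and 1 at day 3. At day 3 there were 2 calls when either day 0 replicate 3 or day 3 replicate 4 was dropped, and 3 when day 3 replicate 2, 3, 5 or 6 was. At day 6, dropping 1 of day 0 replicates 2 and 3 or of day 6 replicates 2 to 4 gave 1 to 3 calls.

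These early differences cross the spike-in sets, since days 2, 3 and 6 lie in set 1 and day 0 in set 3. Only 1 array, day 1 replicate 4, ties set 1 to the other sets, and only late tumours tie set 2 to set 3. Estimates for days 2, 3 and 6 with the set as a block therefore rest on that array and on the late tumours. Those for day 1 rest on the late tumours too, of which 2 lie in set 3. No member was called at day 3 or 6 in that fit, where 134 and 70 of all 14319 genes were called. Ndufb7 differed from day 0 by 0.62 at day 3 and Sdhd by -0.24, opposite to the values above. Macrophage markers were also higher than at day 0, 8 of 12 at each of days 1, 2, 3 and 6, as were 10, 4, 7 and 2 of 11 T and NK cell markers at these days. Keratinocyte markers had median differences of 0.65, 1.60, 1.28 and 1.78 at these days, with 1 of 9 called higher at day 3 only. Skeletal muscle markers had medians of 0.69, 0.93, 0.09 and 0.61, with 0 of 16 called. The part of these cell types was not tested. Within set 1, days 3 and 6 together were compared with day 2: none of 47 members and 0% of all genes were called by limma, 2 members (Ndufa12 and Ndufv2) had an unadjusted p under 0.05, and the median difference was -0.09 with 12 positive.

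At day 9 no member was called by limma, against 4.56% of all genes (2.65% higher, 1.91% lower), and 3 had an unadjusted p under 0.05. These were Ndufb3 (0.52 ± 0.17, adjusted p = 0.0672), Ndufa5 (0.50 ± 0.19) and Ndufa6 (0.48 ± 0.22), which also rose in late tumours. Ndufb3 was called when day 9 replicate 1 or 2 was left out (adjusted p = 0.0412 and 0.0355). Ndufb3 read 10.15, 10.26 and 11.05, Ndufa6 10.28, 10.24 and 11.23, and Ndufa5 10.28, 10.23 and 10.76, with replicate 3 highest in each. That tumour had the large Gapdh gap and also the most skeletal muscle, with a marker sum of 7715 against 712 and 1397. Its adipocyte marker sum was 1183, against 252 and 263. The parts of RNA quality and tissue content were not tested. For Ndufa5 the other day 9 tumours were also above all of day 0. Replicate 3 was lowest for Uqcrc1 (9.22 against 10.05 and 10.41) and Ndufa10 (9.42 against 10.30 and 10.56). The single tumours of days 16 and 29 read 10.38 and 10.49 for Ndufb3, between day 0 and the late group.

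**Figure D4:**
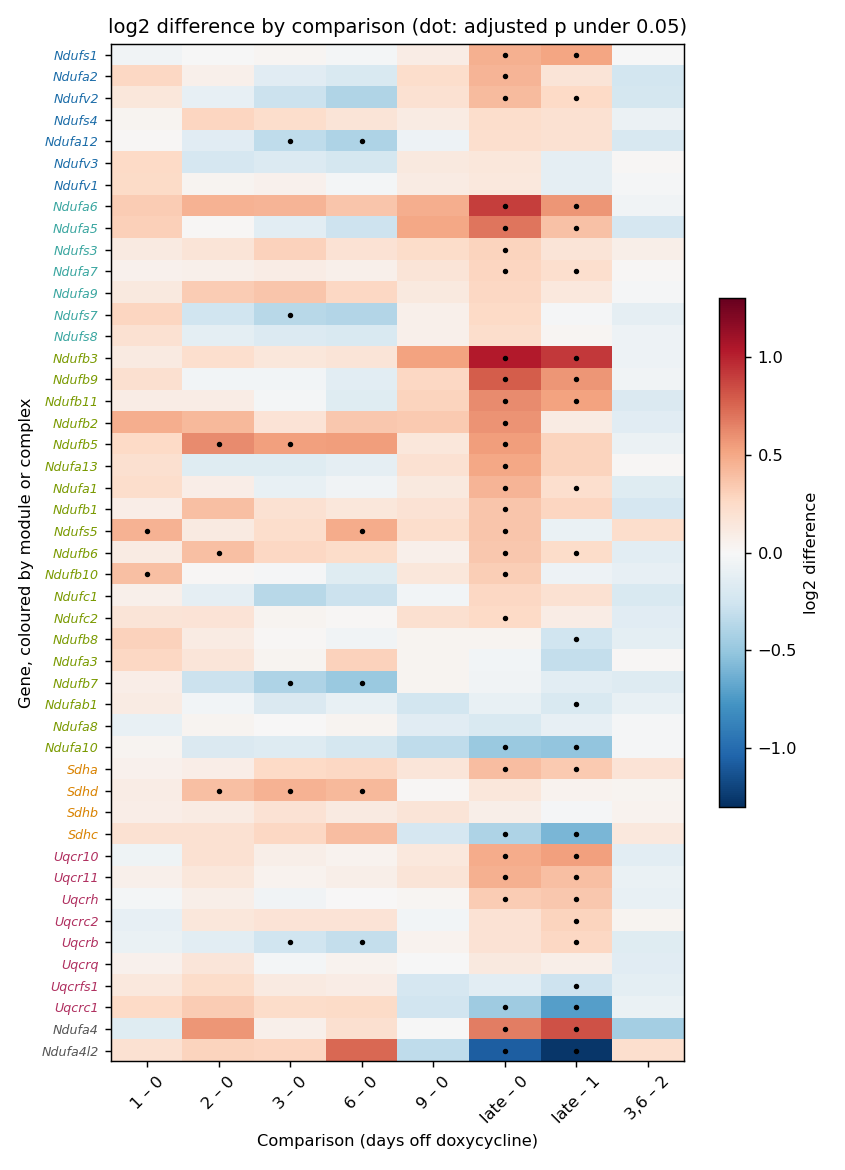
Log2 difference of the 47 genes (rows, with names coloured by module or complex: blue N module, teal Q module, green membrane arm, orange complex II, red complex III, grey the Ndufa4 pair) in 8 comparisons (columns). Dots mark an adjusted p under 0.05: 28 in late tumours against day 0, 24 against day 1 and at most 6 in any other column.

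Other parts of oxidative metabolism were read from lists chosen by function. Complex IV genes were higher in 6 of 15 and lower in 0 against day 0, led by Cox7a1, known as the muscle form of its subunit, at 2.83 ± 0.38 (adjusted p = 4.95e-07), and Cox6c at 0.77 ± 0.13. ATP synthase genes were higher in 7 of 18 and lower in 2, with Atp5l at 0.68 ± 0.13 and Atp5d at -0.79 ± 0.17. Complex assembly factors were higher in 8 of 24 and lower in 1, with Ndufaf1, which helps to build the membrane arm, at 0.64 ± 0.13. Ubiquinone synthesis and electron carrier genes were higher in 7 of 15 and lower in 1, with Etfdh at 0.70 ± 0.14. Pyruvate dehydrogenase and citric acid cycle genes were split, 6 of 18 higher and 4 lower, with Pdhb at 0.51 ± 0.08 and Idh2 at -0.70 ± 0.15. Mitochondrial ribosome genes were split too, 21 of 76 higher and 17 lower, close to the 26.3% and 20.1% of all genes. List medians were 0.15, 0.23, 0.25, 0.27, 0.16 and 0.08 in this order, against 0.05 for all genes.

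Among 16 regulators of mitochondrial genes that passed the filter, 4 were higher and 3 lower in late tumours than at day 0, shares close to the 26.3% and 20.1% of all genes. Tfam, which packages and transcribes mitochondrial DNA, differed by 0.66 ± 0.09 (adjusted p = 7.9e-07) and Polg2, a subunit of the mitochondrial DNA polymerase, by 0.85 ± 0.12 (adjusted p = 1.96e-06). The nuclear receptor gene Ppard differed by -1.01 ± 0.20 (adjusted p = 0.00011). Mitf and Esrra, named after their values were seen, differed by 1.22 ± 0.28 and -0.51 ± 0.12. Ppargc1a did not pass the filter.

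Genes with several probe sets allow a check of the choice of probe set. Of 28 genes called in late tumours against day 0, 14 had a further probe set that passed the filter, and in 13 every such probe set had the same sign; Ndufa10 was the exception. For Ndufb11 the 3 probe sets differed by 0.62, 0.60 and 0.70, and for Ndufa5 the 2 by 0.69 and 0.70. Both Sdhc probe sets were lower, by -0.40 and -0.30. Against day 1, 11 of 15 such genes had 1 sign throughout, and Ndufab1, Ndufb6, Ndufb8 and Uqcrc2 did not. Ndufb3, Ndufa6, Ndufa4, Ndufa4l2, Ndufs1 and Uqcrc1 have a single probe set each.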

How the data were processed

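Biotin-labelled cRNA of 41 tumours was measured on Affymetrix Mouse Genome 430 2.0 arrays, per the labels' protocols. The authors deposited linear intensities, 1 per probe set and array. MAS5 and RMA are named in the submitters' processing notes, without versions and without saying which made the table, and no genome build is given in the sources used here. Arrays have no sequencing depth, and their number limits the precision. No 2 arrays were copies (highest correlation 0.9941).

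Values were turned into log2(intensity + 16), which shrinks differences of weak genes, and quantile normalised. Of 45101 probe sets, 34958 name 1 gene, by GEO's platform annotation, and only these were used. Genes exceeding the 40th percentile of the array on 3 or more arrays were tested. All 41 tumours entered 1 limma fit (limma 3.58.1, R 4.3.3) with group means, which gave 8 comparisons with 32 residual and 2.58 prior degrees of freedom. Adjusted p-values are limma's with Benjamini-Hochberg over 14319 genes, called under 0.05. Spike-in sets were cut at log2 values of 12 (bioD) and 9.5 (dap), chosen after seeing the arrays. The fit was tested on simulated data. Genes named with values were a fixed set by role and the 3 largest rises and falls called in each comparison; further members are given as examples, and up to 3 genes of each other list. The members and lists were chosen with earlier results of these data known, so no p-value is given over a list. Alternatives covered scaling, pseudocounts, filters, probe sets, limma settings, the tumours in the fit, spike-in set, RNA quality, muscle content and each tumour left out. Plots came from matplotlib 3.10.9 (Python 3.11.15).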

Additional observations from a re-analysis of the deposited data

Results flagged for a closer look

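Within each group of 4 to 10 tumours, the highest and lowest values were compared with their nearest neighbour, over 162 sets of values (27 quantities by group). In 14 of them 1 tumour stood apart beyond Dixon's limit, where chance gives about 1 in 20. Replicate 1 of day 0 was low in the mean over 46 members, at 10.32 log2 units with the next tumour at 10.57, in the N module subunit Ndufa12, at 10.49 with the next at 10.86, and in the iron-sulfur subunit Sdhb, at 10.96 with the next at 11.14.

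At day 1, replicate 4 was low for Ndufb10 (10.07, next 10.40) and Ndufb7 (11.39, next 11.85), both of the membrane arm. Replicate 3 was low for Ndufb5 (10.00, next 10.51) and for the complex III core protein Uqcrc2 (10.29, next 10.58). Replicate 2 was high for Ndufs1 (9.46, next 9.24), as was replicate 1 of day 2 (9.36, next 9.26). At day 6, replicate 2 was low for the Rieske protein Uqcrfs1 (10.17, next 10.48).

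In the late group, replicate 5, a day 77 tumour with a small Gapdh gap, was high for Ndufb6 (11.26, next 10.89) and Ndufs5 (7.34, next 6.95). Replicate 8, of day 121 and also with a small gap, was low for Ndufb10 (9.90, next 10.26). Replicate 10, the day 163 tumour, was high for Ndufb7 (12.27, next 11.94).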

How the results depend on the processing

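The count of 28 called members in late tumours against day 0 became 8 with spike-in set as a block, 2 within set 3 and 13 with the Gapdh gap as a covariate, and the count of 24 against day 1 became 9 with that covariate. The block and set 3 estimates of late tumours against day 0 rest on the same 2 late tumours. Leaving out day 0 replicate 1 moved the first count beyond 1.5 times as well, to 17. The remaining settings and omissions kept both within it. Over all genes, calls against day 0 went from 6648 to 4306 (block), 2341 (set 3) and 3542 (covariate). Those against day 1 went from 7403 to 3709 with the covariate. At day 1 the 2 calls became 4 when probe sets of 1 gene were averaged, 8 with array weights, 0 in a fit of the compared groups alone, 7 with the spike-in block, and 5 without tumours of Gapdh gap over 2 or, added after seeing the data, without tumours of muscle marker sum over 2000. At day 2 the 3 calls became 1 with mean probe sets, the compared groups alone or the block, 8 with array weights and 6 without gaps over 2. At day 3 the 6 calls became 3 with median-centred arrays, 0 with mean probe sets or the block and 10 with array weights. At day 6 the 5 calls became 2 with median-centred arrays or mean probe sets, 0 with the block, 14 with array weights and 8 without gaps over 2. With the block, 79, 134 and 70 of all 14319 genes were called at days 2, 3 and 6. The cause of the changes in member counts was not tested.

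With 1 tumour left out at a time, the calls ran from 0 to 5 at day 1, 0 to 2 at day 2, 1 to 4 at day 3, 0 to 5 at day 6, 0 to 1 at day 9, 17 to 29 for late tumours against day 0, 20 to 27 against day 1, and 0 to 0 for days 3 and 6 against day 2.

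Differences that changed sign did so with the spike-in block: Ndufa12 to 0.24 at day 3 and 0.16 at day 6, Ndufb5 to -0.26 at day 2 and -0.34 at day 3, Ndufb7 to 0.62 and 0.53 at days 3 and 6, Ndufs7 to 0.86 and 0.75 at days 2 and 3, Sdhd to -0.51, -0.29, -0.24 and -0.27 at days 1, 2, 3 and 6, and Ndufa4 to -0.039 late against day 0, also within set 3. Sdhc in late tumours against day 0 changed to 0.045 with the Gapdh gap as a covariate and to 0.029 without gaps over 2. With the block, those at days 2, 3 and 6 rest on day 1 replicate 4, the only array tying set 1 to the other sets. The sign changes with the block, those at day 1 and late included, also rest on the 2 late tumours in set 3. Sign changes of genes called under neither setting were not counted.

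No paired analysis was possible because the labels give no replicate numbers that tumours of different groups share. Signal limits Ndufs5 and Ndufb1, whose mean levels over all arrays lie nearest to the filter, and groups of 3 or 4 tumours limit days 0, 6 and 9. Low signal also limits Ndufa4l2 in late tumours, where its mean was 7.02 against 7.99 for Ndufb1.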
